A study of Mus musculus with 2 samples.

Results

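Retinaldehyde dehydrogenases and genes that handle retinoids were examined in NIH3T3 cells, an immortalised line of mouse embryonic fibroblasts, after depletion of the deadenylase CCR4b. The set holds 9 genes, chosen by name, out of 18194 that the array reads with at least 1 probe set of a single symbol: Aldh1a1, Aldh1a2, Aldh1a3 and Aldh1a7 of aldehyde dehydrogenase class 1A, the aldehyde dehydrogenases Aldh2 and Aldh3a1, the retinoic acid receptor gene Rarb, and Crabp1 and Crabp2, which encode cellular retinoic acid-binding proteins. They carry 15 of the 45101 probe sets. The genes were chosen with earlier results of these arrays in view, the high ratio of Aldh1a7 among them, so every ratio below is a description and none is a test. One culture was infected with a retrovirus expressing a CCR4b hairpin (CCR4b RNAi) and the other with a control RNAi retrovirus (Control RNAi). CCR4b, encoded by Cnot6l, removes poly(A) tails from mRNAs as part of the CCR4-NOT complex. Both cultures thus carried an RNAi virus, were grown in serum-containing medium and are represented by 1 array each. No value has a replicate error, no p-value was possible, and the hairpin cannot be told apart from any other difference between the dishes.

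Retinol taken up from serum is oxidised by retinol dehydrogenases to retinaldehyde, which aldehyde dehydrogenases of class 1A oxidise irreversibly to retinoic acid. Retinoic acid is carried in the cytoplasm by CRABP proteins, binds nuclear receptors of the RAR family, which act as dimers with RXR proteins, and is degraded by CYP26 enzymes. Genes such as Rarb, Cyp26a1 and Dhrs3 are known to be induced by retinoic acid in many cell types. In mice Aldh1a1 has a near-identical neighbour, Aldh1a7, whose product is known to oxidise aldehydes such as acetaldehyde but to act poorly, if at all, on retinaldehyde.

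Aldh1a7 and Aldh1a1 lie next to each other in the annotation, with no other protein-coding gene between them, and both had higher signals in the CCR4b RNAi culture. The bases before their starts are shown because these are the members with clearly higher signals and because the sequences share a long stretch. The 250 bases before each start are from the RefSeq table of build GRCm38.p6, written 5′ to 3′ on the strand of the gene, with capitals marking runs of at least 10 bases that are identical at the same distance from the start. For Aldh1a7 they lie at chr19:20727557-20727806 on the minus strand, and for Aldh1a1 at chr19:20601718-20601967 on the plus strand.
Aldh1a7: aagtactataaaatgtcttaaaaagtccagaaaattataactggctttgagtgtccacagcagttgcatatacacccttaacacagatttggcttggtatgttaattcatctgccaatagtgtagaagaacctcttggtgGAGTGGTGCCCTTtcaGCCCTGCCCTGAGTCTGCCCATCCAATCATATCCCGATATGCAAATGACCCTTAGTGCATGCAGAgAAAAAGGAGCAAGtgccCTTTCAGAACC
Aldh1a1: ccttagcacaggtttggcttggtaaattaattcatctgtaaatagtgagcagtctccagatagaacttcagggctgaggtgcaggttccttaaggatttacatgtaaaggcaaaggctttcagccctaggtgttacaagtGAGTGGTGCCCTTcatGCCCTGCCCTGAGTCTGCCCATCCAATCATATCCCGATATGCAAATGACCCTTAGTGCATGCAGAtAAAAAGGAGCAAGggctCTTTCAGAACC
The table gives 2 starts for Aldh1a1, and the downstream one is shown because it resembles Aldh1a7 more. The arrays do not tell which start was used. From position -110 to -1, 104 of 110 bases (94.5%) were identical without gaps, including 1 run of 65 bases from -94 to -30. Farther from the start, out to -250, only 25 of 140 positions (17.9%) matched at equal distance. In that stretch 2 runs of 12 bases are shared at an offset of 75 bases, namely TTTGGCTTGGTA and TTAATTCATCTG. The upstream start of Aldh1a1 matched Aldh1a7 at 32 of 110 positions (29.1%) from -110 to -1.

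**Figure D1:**
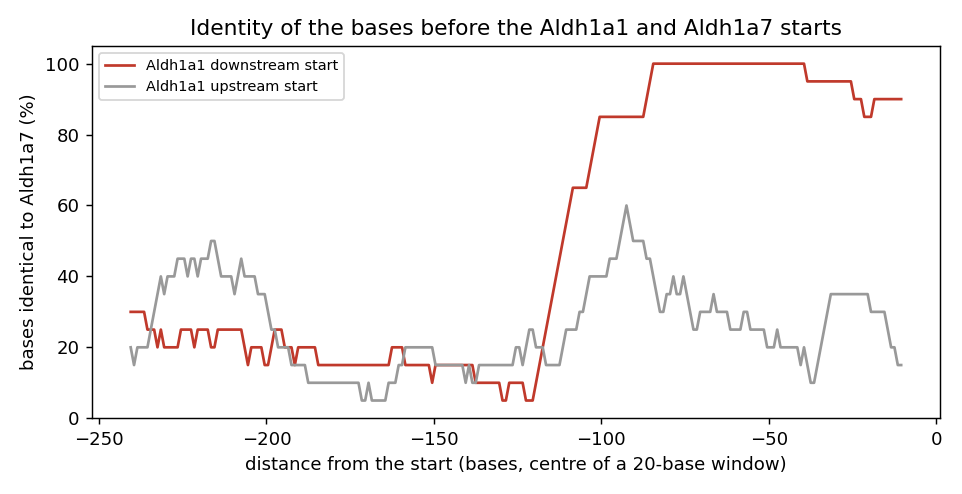
Share of bases of Aldh1a1 identical to Aldh1a7 at the same distance from the start (y axis, percent, in 20-base windows) against distance from the start (x axis, bases), for the downstream (red) and the upstream (grey) start of Aldh1a1. For the downstream start the 110 positions nearest to it were 94.5% identical and the 140 positions farther away 17.9%.

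Motifs were searched on both strands in a window from 250 bases before to 50 bases after each listed start. The choice of motifs was made after the shared stretch was seen. The letters ATGCAAAT, the octamer bound by POU factors, begin at -56 in both genes and also occur at -84 in Aldh1a2. Of the 32851 windows of this length in the table, 1.74% hold them. The letters CCAAT begin at -72 in both Aldh1a7 and Aldh1a1, with further matches at -137 in Aldh1a7, at -2 in Aldh1a1 and at -36 in Aldh1a2, and 37.4% of all windows hold them. The letters TATAAA occur among the listed members at -244 in Aldh1a7, and 13.6% of all windows hold them. Direct repeats of shortened half-sites were searched as GGTCANNNNNGGTCA, GTTCANNNNNGTTCA, GGTCANNGGTCA and GTTCANNGTTCA. These letters leave out the first base of the half-site bound by RAR-RXR dimers. Their spacing therefore differs from that of the usual elements of such dimers, and mixed pairs of the cores were not searched. None of these strings was found in the windows of the 5 members the table lists (Aldh1a1, Aldh1a2, Aldh1a7, Rarb and Crabp1). Of all windows, 0.0761%, 0.0396%, 0.222% and 0.0548% hold them. Because elements of the usual spacing were not searched, this does not show whether these windows hold one. The motifs do not overlap one another in these windows, and a match describes letters only.

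Signals are deposited probe-set intensities in arbitrary units on a linear scale. A floor of 8.07 units, the 50th percentile of the pooled values, stood for the limit of measurement, and a gene was measured if its brightest probe set reached the floor on at least 1 array. Of the 9 genes, 5 were measured (Aldh1a1, Aldh1a7, Aldh2, Aldh3a1 and Crabp1), each above the floor on both arrays, and 4 (Aldh1a2, Aldh1a3, Rarb and Crabp2) were below it on both. Over all genes 11915 were measured, with a median log2 ratio of CCR4b RNAi over Control RNAi of -0.07. Between probe sets of the same gene, log2 ratios had a robust SD of 0.33 (4550 genes with 2 or more bright enough on both arrays). Cnot6l, the targeted gene, read 43.0 units after CCR4b RNAi, against 102 units in Control RNAi, on its brightest probe set (log2 ratio -1.25), and its other 3 probe sets were also lower.

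Aldh1a7 read 1524 units after CCR4b RNAi, against 260 units in Control RNAi, on its only probe set. This was 5.86-fold higher (log2 ratio 2.55), the 11th highest ratio of the 11915 measured genes. Measured genes were divided into 10 equal classes of mean signal, and among the 1192 genes in the brightest class, where ratios had a robust SD of 0.36 around a median of -0.17, no ratio was higher. Aldh1a1, the retinaldehyde dehydrogenase also called RALDH1, read 697 units after CCR4b RNAi, against 239 units in Control RNAi. It was 2.92-fold higher (log2 ratio 1.55), at rank 99 of all measured genes and rank 5 of its signal class. The ratio of Aldh1a7 exceeded that of Aldh1a1 by more than 0.33, the robust SD of probe sets around the mean of their gene. That value describes single probe sets and is smaller than the spread of a difference between 2 of them. Each of these genes also has only 1 probe set and 1 array per group. Both identifiers are of the kind that the array's design assigns to a single transcript. The probe sequences were not used here, so cross-hybridisation between these near-identical transcripts was not tested.

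**Figure D2:**
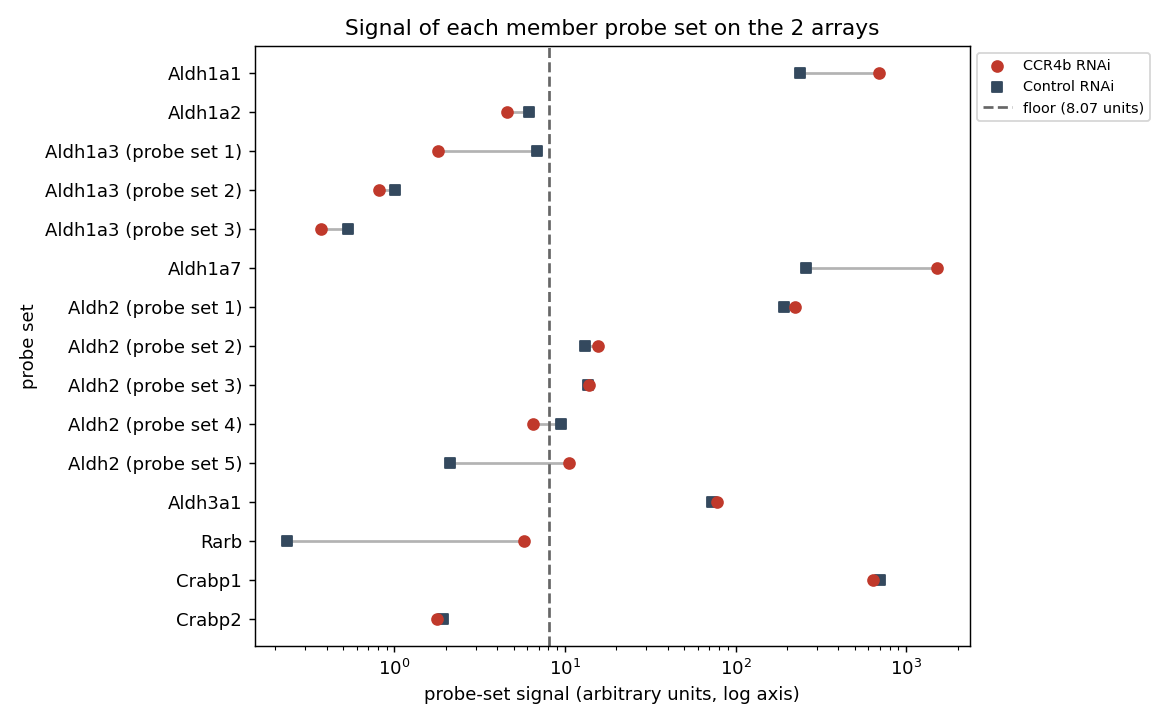
Signal of each of the 15 probe sets of the 9 genes (x axis, arbitrary units, log axis) on the CCR4b RNAi array (red circles) and the Control RNAi array (dark squares), 1 array each, with the floor of 8.07 units as a dashed line. Aldh1a7 and Aldh1a1 stand apart between the arrays well above the floor, whereas Aldh3a1, Crabp1 and the brightest probe set of Aldh2 have nearly equal signals.

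Aldh1a2 and Aldh1a3, the other principal retinaldehyde dehydrogenase genes, lay below the floor on every probe set. Aldh1a2, the main source of retinoic acid in the mouse embryo, read 4.55 units after CCR4b RNAi, against 6.17 units in Control RNAi. Aldh1a3 read 1.81, 0.814 and 0.374 units after CCR4b RNAi, against 6.84, 1.01 and 0.531 units in Control RNAi, on its 3 probe sets. No fold is given for them. Aldh1a1 was therefore the only 1 of the 3 principal retinaldehyde dehydrogenase genes that was measured.

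The aldehyde dehydrogenases outside class 1A differed little between the arrays. Aldh2, the mitochondrial enzyme that oxidises acetaldehyde, read 223 units after CCR4b RNAi, against 192 units in Control RNAi, on its brightest probe set (log2 ratio 0.21, 1.16-fold). Its 4 dimmer probe sets had log2 ratios of 0.26, 0.01, -0.22 and 0.38, the last pair being bounds against the floor. The brightest probe set of Aldh2 ranked 3405 among all measured genes. Aldh3a1, abundant in cornea and stomach and active on lipid-derived aldehydes, read 78.3 units after CCR4b RNAi, against 72.4 units in Control RNAi (log2 ratio 0.11). Both ratios were smaller than the robust SD of 0.41 (Aldh2) and 0.43 (Aldh3a1) among genes of like signal.

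Carriers and receptor differed in whether they could be measured at all. Crabp1, whose product binds retinoic acid in the cytoplasm and is linked to its breakdown, read 638 units after CCR4b RNAi, against 698 units in Control RNAi. Its log2 ratio of -0.13 was within the spread of its signal class (robust SD 0.36) and turned to 0.03 with quantile normalization and 0.04 with a loess correction on signal. Crabp2, whose product delivers retinoic acid to RAR, read 1.77 units after CCR4b RNAi, against 1.93 units in Control RNAi, below the floor on both arrays. Rarb read 5.73 units after CCR4b RNAi, against 0.235 units in Control RNAi. Both of these also lie below the floor, so this difference has no fold.

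Of the 5 measured genes, 2 were at least 1.5-fold higher and both of them at least 2-fold higher, and 0 were 1.5-fold lower. Over all measured genes 11.3% were at least 1.5-fold and 3.74% at least 2-fold higher, and 14.6% and 4.48% as much lower. Because the genes were chosen with these ratios known, nothing is read from that contrast. Of all genes at least 1.5-fold apart, 43.7% were higher after CCR4b RNAi, and 32.4% were after scaling each array by its median. Under the 8 other settings tried, the log2 ratio stayed between 2.46 and 2.73 for Aldh1a7 and between 1.45 and 1.73 for Aldh1a1. Only the scalings could move these ratios appreciably, since each gene has a single probe set far above the floor.

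**Figure D3:**
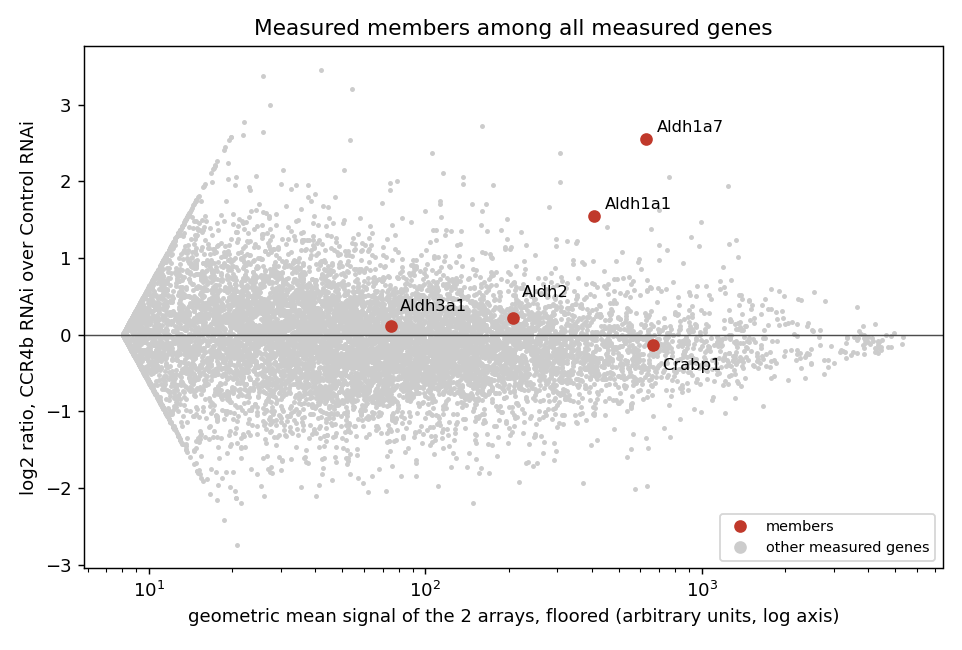
Log2 ratio of CCR4b RNAi over Control RNAi (y axis) against the geometric mean signal of the 2 arrays after flooring (x axis, arbitrary units, log axis) for the 11915 measured genes (grey) and the 5 measured members (red). Aldh1a7 (2.55) lies above all genes of its signal class and Aldh1a1 (1.55) at rank 5 of the same class. Aldh2, Aldh3a1 and Crabp1 lie within the spread of their own signal classes.

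**Figure D4:**
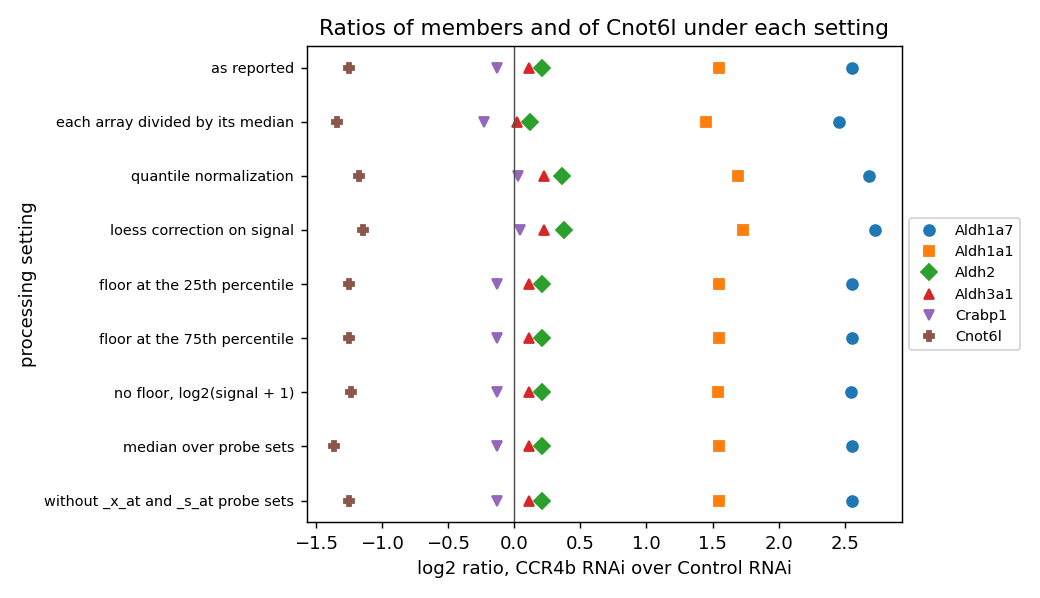
Log2 ratio of CCR4b RNAi over Control RNAi (x axis) of the 5 measured members and of Cnot6l under the reported setting and 8 alternatives (y axis), 1 symbol per gene. Aldh1a7 and Aldh1a1 remained above 1.4 in each setting, and Crabp1 lay on either side of 0.

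Enzymes that make and remove retinaldehyde went both ways. Among 19 measured genes for retinol and retinaldehyde oxidoreductases, 5 were higher and 2 lower by 1.5-fold or more, with a median log2 ratio of 0.08. These are 26.3% and 10.5%, against 11.3% and 14.6% of all measured genes. Dhrs3, which reduces retinaldehyde back to retinol and is induced by retinoic acid, read 52.2 units after CCR4b RNAi, against 21.4 units in Control RNAi (2.44-fold higher, 1 probe set). Aox1, an aldehyde oxidase that can oxidise retinaldehyde, read 85.2 units after CCR4b RNAi, against 30.2 units in Control RNAi (2.83-fold higher). Adh1, an alcohol dehydrogenase able to oxidise retinol, was not above the floor in Control RNAi, and its 24.1 units after CCR4b RNAi made it at least 2.99-fold higher. Rdh10, the retinol dehydrogenase essential for embryonic retinoic acid synthesis, had log2 ratios of 0.08 and 0.46 on its pair of probe sets. Rdh11, a retinaldehyde reductase that is also regulated by SREBP, was 1.83-fold lower (88.3 units after CCR4b RNAi, against 161 units in Control RNAi) and 1.66-fold lower on its second probe set. Rdh14 was 1.70-fold lower by its brightest probe set, while the others gave log2 ratios of 0.20 and -0.81.

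Uptake and storage genes were mostly below the floor. Of 15 with a probe set of their own, 4 were measured, with 1 higher and 0 lower by 1.5-fold or more (11.3% and 14.6% of all measured genes) and a median log2 ratio of -0.09. The higher one was Lpl, lipoprotein lipase, which can release retinol from retinyl esters in lipoproteins among its many lipid substrates. It read 1554 units after CCR4b RNAi, against 374 units in Control RNAi, 4.15-fold higher, and its second probe set gave a log2 ratio of 2.32. Rbp4, the retinol carrier of plasma, read 8.76 units after CCR4b RNAi, against 8.72 units in Control RNAi, close to the floor. Stra6, the membrane receptor for that carrier, and Lrat, which esterifies retinol for storage, were below the floor on both arrays.

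Of the genes for breakdown of retinoic acid, 3 of 6 with a probe set of their own were measured, with 1 higher and 0 lower by 1.5-fold or more (11.3% and 14.6% of all measured genes) and a median log2 ratio of 0.44. Cyp26b1, a retinoic acid hydroxylase, read 30.9 units after CCR4b RNAi, against 22.8 units in Control RNAi (log2 ratio 0.44). Cyp26a1, the hydroxylase most strongly induced by retinoic acid in many cells, read 1.12 units after CCR4b RNAi, against 0.414 units in Control RNAi, below the floor. The higher gene was Cyp4v3, a fatty acid hydroxylase not specific to retinoids (58.5 units after CCR4b RNAi, against 26.8 units in Control RNAi, 2.18-fold higher). Its brightest probe set is of a kind open to cross-hybridisation, and its other one read 19.9 units after CCR4b RNAi, against 7.56 units in Control RNAi, at least 2.47-fold higher.

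Among 24 measured genes for nuclear receptors, carriers and coregulators, 3 were higher and 3 lower by 1.5-fold or more, with a median log2 ratio of 0.10. Each is 12.5%, near the 11.3% and 14.6% of all measured genes. Rara, the receptor RARα, read 21.5 units after CCR4b RNAi, against 13.9 units in Control RNAi (1.54-fold higher). Rarg, the receptor RARγ, had log2 ratios of -0.41 and -0.82 on its pair of probe sets. The partners Rxra and Rxrb had log2 ratios of 0.24 and 0.08 on their brightest probe sets. Fabp5, which carries retinoic acid to PPARδ in mouse cells, read 848 units after CCR4b RNAi, against 1726 units in Control RNAi, 2.04-fold lower, and was 2.47-fold lower on its second probe set. Ppard, which encodes PPARδ itself, read 15.4 units after CCR4b RNAi, against 29.5 units in Control RNAi, 1.92-fold lower. Nr2f1, the orphan receptor COUP-TFI that represses retinoid signalling in several cell types, was the lowest of the list at 87.1 units after CCR4b RNAi, against 268 units in Control RNAi (3.07-fold lower, 1 probe set). Nr2c1, an orphan receptor also called TR2, and Ncoa3, a coactivator, were 1.84-fold and 1.79-fold higher. Nr2c1 had log2 ratios of 0.12 and 1.71 on its other measured probe sets, and Ncoa3 had 0.53 (1.45-fold) on its second.

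Genes described as responsive to retinoic acid mostly had ratios above 0 at the reported floor. Among the 28 measured ones, 7 were higher and 1 was lower by 1.5-fold or more. Among all measured genes the shares were 11.3% and 14.6%. The median log2 ratio was 0.42, against -0.07 for all measured genes, and 24 of the 28 (85.7%) had a ratio above 0, as did 44.0% of all measured genes. Such a shift was not particular to this list. Fibroblast markers, chosen to check the cell type, had a median of 0.37, with 9 of 11 (81.8%) above 0. With the other 3 scalings 6 or 10 of the responsive genes were higher and 1 was lower by 1.5-fold or more. With the floor at the 25th percentile 9 were higher and 7 lower among 36 measured (25% and 19.4%), near the 19.8% and 21.6% of all genes measured at that floor. The list median there was 0.36, against -0.065 for all genes. With the floor at the 75th percentile 3 were higher and 0 lower among 18 measured (16.7% and 0%). Of all genes measured at that floor 6.48% were higher and 14.1% lower, and the list median was 0.44, against -0.12. Besides Dhrs3, the highest were Pdk4, a kinase that inhibits pyruvate dehydrogenase, and Hoxa2, a homeobox gene. Pdk4 read 457 units after CCR4b RNAi, against 193 units in Control RNAi (2.37-fold higher). Hoxa2 read 35.6 units after CCR4b RNAi, against 16.2 units in Control RNAi (2.20-fold higher). Gata6, a transcription factor gene, was 1.90-fold lower by its brightest probe set but at least 1.59-fold higher on the next. Many genes of this list also respond to other signals, 16 of the 44 with a probe set were below the floor, among them Rarres1, Hoxb1 and Stra8, and retinoic acid itself was not measured. The part of retinoic acid in these ratios was not tested.

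**Figure D5:**
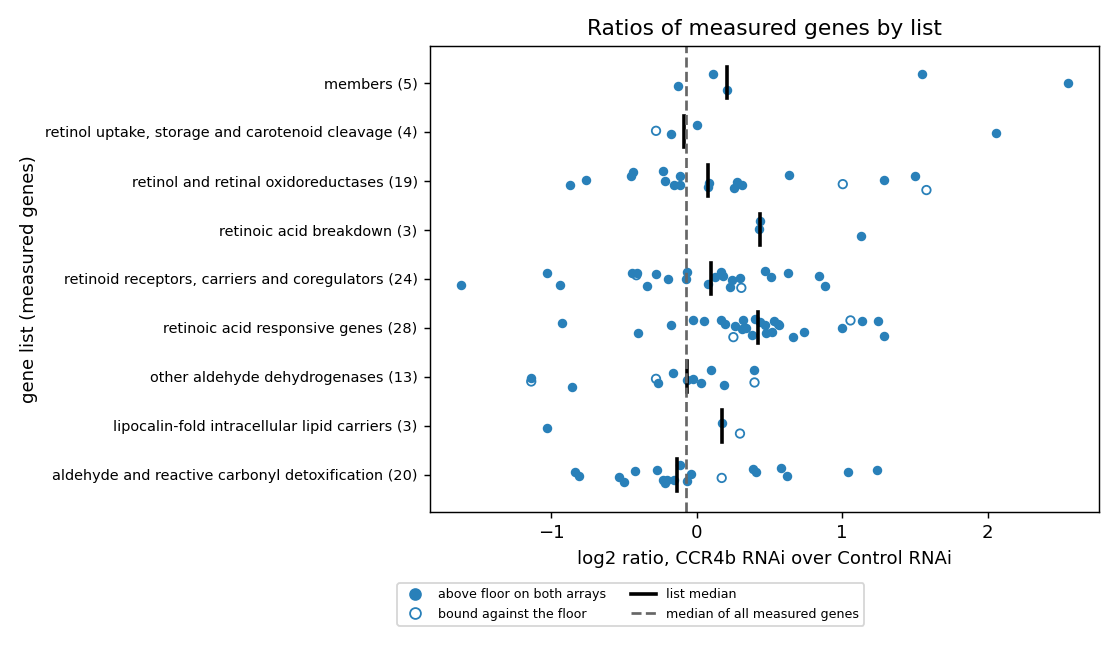
Log2 ratio, CCR4b RNAi over Control RNAi (x axis), of the measured genes of each list (y axis, number of measured genes in brackets), with filled circles for genes measured on both, open circles for bounds against the floor, black bars for list medians and a dashed line for the median of all measured genes. The 28 genes responsive to retinoic acid have a median of 0.42, against -0.07 for all measured genes.

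Among the 13 measured genes for other aldehyde dehydrogenases, 0 were higher and 3 were lower by 1.5-fold or more, with a median log2 ratio of -0.06. With 11.3% and 14.6% of all measured genes as much higher and lower, these counts of so few genes are close to the background. Aldh1l2, the mitochondrial enzyme that oxidises formyltetrahydrofolate, read 58.8 units after CCR4b RNAi, against 130 units in Control RNAi (2.20-fold lower). Aldh18a1, which makes the precursor of proline, was 1.81-fold lower at its brightest probe set, which is open to cross-hybridisation, and had log2 ratios between -0.89 and 0.30 on the other 4. Its only probe set not of that kind gave -0.45, and without probe sets open to cross-hybridisation 2 genes of this list were 1.5-fold lower. Aldh4a1, an enzyme of proline breakdown, read 2.43 units after CCR4b RNAi, under the floor, against 17.7 units in Control RNAi, and so was at least 2.20-fold lower. Aldh8a1, which can oxidise retinaldehyde in mice, read 10.6 units after CCR4b RNAi, against a signal below the floor in Control RNAi, and so was at least 1.32-fold higher. Among lipid carriers of the family that includes CRABP1, 3 of 12 were measured, and Fabp5 was the only one at least 1.5-fold apart, with a median log2 ratio of 0.18.

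Markers were checked for the labelled cell type and for others. Of 12 fibroblast markers 11 were measured, summing to 24266 units after CCR4b RNAi and 20871 units in Control RNAi. Among the 11, 2 were at least 1.5-fold higher and 1, Thy1, was 1.70-fold lower. The shares over all measured genes were 11.3% and 14.6%. Adipocyte markers summed to 1639 units after CCR4b RNAi and 453 units in Control RNAi, nearly all of it Lpl, while Adipoq, Lep, Pparg, Cebpa and Cidec were below the floor on both arrays. Fabp4 and Retn were also measured, with log2 ratios of 0.18 and -0.24. Epithelial, leukocyte, endothelial and muscle markers summed to 52.4, 67.9, 13.2 and 34.0 units after CCR4b RNAi, and to 55.0, 73.6, 13.6 and 26.4 units in Control RNAi. Of these 4 lists 2, 4, 0 and 2 markers were measured, and Cdh1, Ptprc, Pecam1 and Myod1 were below the floor on both arrays. The measured markers went both ways, so the sums hide differences between single genes. Epcam was 1.52-fold and Lyz2 at least 2.83-fold higher, and Cd68 was 2.55-fold and Ckm 1.57-fold lower. In such bulk samples, fewer cells of a type and less RNA per cell cannot be told apart.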

How the data were processed

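RNA of 2 NIH3T3 cultures was measured on Affymetrix Mouse Genome arrays, 1 per group, grouped by the knockdown label. The deposited values are linear intensities per probe set; per the series design text and the submitters' processing notes, the authors computed them in GCOS with a global normalization. The GCOS version and target value were not stated and detection calls were not used here, so precision is limited by the number of arrays. Of 45101 probe sets, 34958 had 1 gene symbol in the platform annotation, and 34754 of these matched RefSeq genes (GRCm38.p6, used for names, gene order and promoter sequences).

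Values were raised to a floor (50th percentile, 8.07 units) and turned into log2 ratios with numpy 2.4.6 and pandas 2.3.3. Each gene was represented by its probe set of highest mean log2 signal, and where 1 array lay below the floor the ratio is a bound, written "at least". A robust SD is the scaled median absolute deviation. The calculation was run on simulated arrays with known changes. Without noise these changes are returned by construction, so this checked the arithmetic only. With 1 array per group no test was run. The members and lists were chosen with earlier results of these data known. Named genes were the 9 members, Cnot6l, a fixed set of key retinoid genes, and up to 3 genes per direction and list at least 1.5-fold apart. Aldh8a1, the genes named as below the floor and the neighbours of the Aldh1a pair were added after values were seen. No genes of most like pattern are named, since 2 arrays give each gene 1 ratio. The alternatives were scaling by array median, quantile normalization, loess (statsmodels 0.14.6, span 0.3), the 25th or the 75th percentile as the floor, log2(signal + 1) in place of a floor, the median of the probe sets of a gene, and leaving out _x_at and _s_at probe sets, which can hybridise to several transcripts.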

Additional observations from a re-analysis of the deposited data

How the results depend on the processing

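Of 48 recomputed log2 ratios of the 5 measured members and Cnot6l, 46 moved by less than the 0.33 spread between probe sets and kept their direction. The 2 that changed sign were those of Crabp1, at 0.033 with quantile normalization and 0.042 with a loess correction. Aldh1a1, Aldh1a7, Aldh3a1 and Crabp1 each have a single probe set, which lay above every floor tried. For these genes the floor and probe-set settings could hardly move the ratio, so only the scalings were informative. With the floor at the 25th percentile, Aldh1a2, Aldh1a3 and Rarb also had ratios, of -0.44, -1.68 and 1.42, from signals below the reported floor. Of 128 recomputed list counts 106 stayed within 1.5 times. At that lower floor, 3 of 11 measured uptake and storage genes and 1 of 13 other aldehyde dehydrogenases were at least 1.5-fold higher. So were 5 of 10 lipid carriers and 5 of 22 carbonyl detoxification genes, against 19.8% of all genes measured there. As much lower were 4 of 11 for uptake, 4 of 22 for oxidoreductases and 1 of 5 for breakdown. Lower too were 5 of 26 receptor, 7 of 36 retinoic acid responsive and 3 of 10 lipid carrier genes, against 21.6% of all genes. At the 75th percentile, 2 of 15 oxidoreductases, 0 of 17 receptor genes and 3 of 18 responsive genes were higher, against 6.48% of all genes. Lower there were 0 of 18 responsive and 1 of 17 detoxification genes, against 14.1% of all genes. Without a floor, 1 of 4 uptake genes was lower, against 18.1% of all genes. In that setting 1 of 13 other aldehyde dehydrogenases and 1 of 3 lipid carriers were higher, against 15.3%. With the median over probe sets, 5 of 24 receptor genes and 0 of 28 responsive genes were lower, against 12.7% of all genes. Loess gave 2 of 3 breakdown genes higher (12.3% of all genes). Division by the array median gave 4 of 20 detoxification genes lower (19.0% of all genes). Over all genes, 3222 were higher and 3516 lower of 16254 measured at the 25th percentile floor. At the 75th they were 472 and 1025 of 7284, against 1352 and 1744 of 11915 as reported. Most of the counts that moved did so with the floor. No paired analysis was possible because each group has 1 array.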

Other observations

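Genes listed for the removal of reactive aldehydes and other carbonyls went both ways. Among the 20 measured ones, 3 were higher and 2 lower by 1.5-fold or more after CCR4b RNAi (15% and 10%), near the 11.3% and 14.6% of all measured genes. Their median log2 ratio was -0.14, against -0.07 for all measured genes. Akr1c14, an aldo-keto reductase that acts on steroids, read 63.4 units after CCR4b RNAi, against 26.9 units in Control RNAi (2.36-fold higher). Gstm2 read 357 units after CCR4b RNAi, against 174 units in Control RNAi (2.05-fold higher), and Gstm1 was 1.54-fold higher on a brightest probe set open to cross-hybridisation, with log2 ratios between 0.13 and 0.29 on its other 3. Gsta4, which conjugates the lipid aldehyde 4-hydroxynonenal, read 829 units after CCR4b RNAi, against 1450 units in Control RNAi (1.75-fold lower). Fbxl12, an F-box protein gene in the list that does not encode such an enzyme, was 1.79-fold lower.

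The 3 nearest protein-coding genes with a probe set on each side of the pair Aldh1a1 and Aldh1a7 were looked up in annotation order. Anxa1, next to Aldh1a1, read 3948 units after CCR4b RNAi, against 4046 units in Control RNAi (log2 ratio -0.04). Beyond it, Rorb had a bound of at least 1.33-fold lower and Trpm6 was below the floor on both arrays. On the other side, Tmc1 was below the floor on both arrays, and Zfand5 read 823 units after CCR4b RNAi, against 821 units in Control RNAi. Gda, which encodes guanine deaminase and is the third gene on that side, read 33.1 units after CCR4b RNAi, against 12.2 units in Control RNAi (2.71-fold higher), with 2.47-fold on its second probe set.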
